A study of Mus musculus with 10 samples.

Results

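The 8 genes described here, Mest, Sfrp5, Bmp3, Npr3, Nnat, Peg3, Plagl1 and Trp53inp2, are known for RNA levels in fat that differ between inbred mice in step with the expansion of fat mass. They were chosen by symbol, not by their values, though earlier results of these data were known. They were found as 8 of the 26040 gene identifiers of the count table. All 8 were among the 16446 genes with enough counts to be tested. The measurements are total RNA sequencing counts from epididymal white adipose tissue, a visceral fat pad of male mice attached to the epididymis. There were 5 libraries from C57BL/6 mice with an adipocyte-specific knockout of Sucnr1 (Ad-Sucnr1 KO) and 5 from C57BL/6 mice with floxed Sucnr1 alleles (Sucnr1fl/fl), which served as controls. Sucnr1 encodes the cell-surface receptor for succinate. The labels name no Cre driver, age, diet, body weight or fat mass, so no relation to fat mass itself was analysed here.

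Genetically identical mice differ in how far their fat pads expand, and Mest and Sfrp5 are the best known genes whose RNA in fat varies with that difference. Mest encodes an enzyme-like protein of the endoplasmic reticulum and is an imprinted gene read from the paternal allele. Nnat, Peg3 and Plagl1 are also imprinted and paternally expressed. Sfrp5 and Bmp3 encode secreted proteins, of which Sfrp5 binds Wnt ligands outside the cell and Bmp3 belongs to the bone morphogenetic protein family.

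The promoters of Mest, Peg3 and Sfrp5 are shown. They were picked because Sfrp5 and Peg3 had the highest r with Mest among the 6 libraries with the most Mest RNA. Those 6 were set apart after the values were seen. Each window runs from 250 bases before to 50 bases after a RefSeq start site (GRCm38.p6), written 5′ to 3′ on the gene's own strand, with CpG dinucleotides, the sites of DNA methylation at imprinted promoters, in capitals. They cover chr6:30737800-30738099 (plus strand), chr7:6730370-6730669 (minus strand) and chr19:42202203-42202502 (minus strand).
Mest: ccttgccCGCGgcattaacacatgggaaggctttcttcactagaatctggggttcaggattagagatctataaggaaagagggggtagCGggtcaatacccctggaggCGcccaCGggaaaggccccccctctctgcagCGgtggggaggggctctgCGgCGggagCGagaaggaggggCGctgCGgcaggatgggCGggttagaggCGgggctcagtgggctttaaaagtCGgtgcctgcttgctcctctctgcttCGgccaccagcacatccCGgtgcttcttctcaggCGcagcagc
Peg3: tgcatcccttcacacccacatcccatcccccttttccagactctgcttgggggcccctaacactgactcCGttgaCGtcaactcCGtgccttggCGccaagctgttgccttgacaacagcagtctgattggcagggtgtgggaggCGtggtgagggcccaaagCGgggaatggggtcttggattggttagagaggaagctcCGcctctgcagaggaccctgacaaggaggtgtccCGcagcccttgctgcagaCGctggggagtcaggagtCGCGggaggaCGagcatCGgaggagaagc
Sfrp5: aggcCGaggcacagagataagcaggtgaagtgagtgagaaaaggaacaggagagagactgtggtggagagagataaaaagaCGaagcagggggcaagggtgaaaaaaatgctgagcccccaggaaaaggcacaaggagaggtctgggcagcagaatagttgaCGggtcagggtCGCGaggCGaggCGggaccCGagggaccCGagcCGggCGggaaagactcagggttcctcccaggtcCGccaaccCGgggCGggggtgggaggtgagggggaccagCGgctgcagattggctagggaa
Mest has 3 windows in the table, of which the one shown is that of the second start site listed. The windows shown held 17, 13 and 15 CpG, against a median of 7 over 32851 promoter windows, and 31.4%, 37.9% and 34.6% of all windows held as many. The first Mest window, chr6:30733256-30733555, held 8 CpG, as many as 48.6% of all windows, and the third, chr6:30737803-30738102, nearly coincides with the one shown. The motif CCAAT, on either strand, was found in the Peg3 window 2 times and in the Sfrp5 window 1 time, and in 37.4% of all windows. GGGGCCCC, a motif known for binding of the Plagl1 protein, was found in the Peg3 window and in 1.08% of all windows. AGGTCA, the half-site of nuclear receptors such as PPARγ, is in 16.3% of all windows and in none of the 9 windows of the 7 genes with one. Methylation was not analysed here.

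Libraries held between 24182798 and 30603326 counts. Sucnr1 stood at 3.10 ± 1.01 CPM, the counts scaled to a common library size by TMM, in knockout libraries and 59.6 ± 17.4 CPM in control libraries (SD, n = 5 each), with no overlap, in the direction that the labels state. Nothing in the labels says that each library is a separate mouse, so p-values measure the spread between these libraries. Adipoq, an adipocyte-defining secreted protein, ranged from 1516 to 3444 CPM, lowest in control libraries 6 and 3. The epididymal marker score, a mean log2 CPM, was highest in control 6 (9.88), knockout 3 (8.43), control 2 (6.91) and knockout 2 (6.39). Control 3, with a score of 0.557, stood apart otherwise, with 5106 CPM of the vas deferens gene Akr1b7, the highest smooth muscle and vas deferens sum of all libraries, and 2715 CPM of Crisp1, a secretory protein of the epididymis, but 0 of Crisp4. Knockout 6 alone held 4310 CPM of the liver gene Alb. In whole tissue, fewer cells of a type and less RNA per cell cannot be told apart.

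Levels of the 8 genes varied from library to library, most for Sfrp5 and least for Nnat, and none differed between the genotypes beyond that variation. Over the 10 libraries, the highest level was 8.07 times the lowest for Sfrp5, 3.87 times for Bmp3, 3.27 times for Trp53inp2, 3.19 times for Mest, 2.88 times for Npr3, 2.84 times for Plagl1, 2.41 times for Peg3 and 1.96 times for Nnat. Control library 5 held the highest level of 5 of the genes, Mest, Sfrp5, Npr3, Peg3 and Trp53inp2. Control library 6 was among the 3 lowest libraries for all 8. Levels of knockout and control libraries overlapped for every gene, and groups without overlap were found for only 1.91% of all tested genes.

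Mest stood at 217, 185, 319.7, 484 and 318 CPM in knockout libraries 2 to 6, against 418, 169, 407.5, 539 and 172 CPM in control libraries 2 to 6. Both groups thus held low and high libraries, with knockouts 2 and 3 and controls 3 and 6 low and library 5 highest in each group. The fitted log2 ratio of knockout to control was -0.16 (SE 0.38), and its 95% interval of -1.003 to 0.68 held both a fall and a rise (adjusted p = 0.881 by the quasi-likelihood test of edgeR, with the Benjamini-Hochberg method). Without control library 5 the sign turned (0.06). Mest (ENSMUSG00000051855) occupies chromosome 6, 30723547 to 30748465, plus strand (mm10), and 912 of its 3945 exonic bases overlap Copg2 on the other strand. Copg2, a coat protein subunit gene, ranged only from 84.82 to 114.4 CPM over the same libraries.

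Peg3, a zinc finger protein gene, stood at 566, 639, 564, 896 and 757 CPM in knockout libraries 2 to 6, against 801, 421, 819, 1014 and 493 CPM in control libraries 2 to 6. It (ENSMUSG00000002265) occupies chromosome 7, 6703892 to 6730431, minus strand. As for Mest, library 5 was highest in each group and controls 3 and 6 were the lowest of all. For Peg3, knockout over control was -0.05 in log2 units (SE 0.25, 95% interval -0.61 to 0.50; edgeR adjusted p = 0.951). Nnat, which encodes a small membrane protein of the endoplasmic reticulum, stood at 919, 777, 1267, 1296 and 1308 CPM in knockout libraries 2 to 6, against 1239, 728, 1140, 1157 and 668 CPM in control libraries 2 to 6. Its knockouts 2 and 3 and controls 3 and 6 were again the lowest, while the other 6 libraries lay close together between 1140 and 1308 CPM. For Nnat, knockout over control was 0.17 in log2 units (SE 0.22, 95% interval -0.32 to 0.67; edgeR adjusted p = 0.783). Nnat (ENSMUSG00000067786; chromosome 2, 157560078 to 157562522, plus strand) sits inside Blcap, which is read from the other strand, but shares no exonic base with it.

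Plagl1, a zinc finger transcription factor that acts on a network of imprinted genes, followed another order. It stood at 253, 170.4, 363, 162 and 216 CPM in knockout libraries 2 to 6, against 254, 137, 194, 183.5 and 128 CPM in control libraries 2 to 6. Knockout 5, the second highest library for Mest, was among the 3 lowest for Plagl1, and knockout 4 was the highest. The gene (ENSMUSG00000019817) occupies chromosome 10, 13060504 to 13131694, plus strand. For Plagl1, knockout over control was 0.38 in log2 units (SE 0.26, 95% interval -0.19 to 0.95; edgeR adjusted p = 0.625, the lowest of the 8 genes).

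Sfrp5, the Wnt-binding protein, had the widest range. It stood at 33.25, 31.8, 86.8, 217 and 82.1 CPM in knockout libraries 2 to 6, against 185, 93.8, 99.2, 256 and 44.6 CPM in control libraries 2 to 6. Knockouts 2 and 3 and control 6 were low, whereas knockout 5 and controls 2 and 5 stood far above the rest. Sfrp5 averaged 90.2 ± 75.5 CPM in knockout libraries and 136 ± 84 CPM in control libraries (SD, n = 5 each), and the log2 ratio was -0.59 (SE 0.62, 95% interval -1.98 to 0.80; edgeR adjusted p = 0.742). The interval thus covers everything from 0.253 times to 1.74 times the control level. Sfrp5 (ENSMUSG00000018822) occupies chromosome 19, 42197971 to 42202252, minus strand, and overlaps no other counted gene.

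Bmp3 stood at 53.5, 36.8, 102, 77.65 and 64.0 CPM in knockout libraries 2 to 6, against 101, 134, 58.6, 93.3 and 34.5 CPM in control libraries 2 to 6. Control 3, low for Mest and Peg3, held the highest Bmp3 level of all 10 libraries. Bmp3 (ENSMUSG00000029335) occupies chromosome 5, 98854415 to 98884396, plus strand. For Bmp3, knockout over control was -0.335 in log2 units (SE 0.37, 95% interval -1.16 to 0.49; edgeR adjusted p = 0.753). Npr3, the receptor that clears natriuretic peptides from the circulation, stood at 909.6, 744, 1391, 1221 and 1029 CPM in knockout libraries 2 to 6, against 1342, 929, 1063, 1587 and 550.1 CPM in control libraries 2 to 6. Control 6 and knockout 3 were the lowest, and control 5 and knockout 4 the highest. Npr3 (ENSMUSG00000022206) occupies chromosome 15, 11839896 to 11907287, minus strand, and shares 321 of its 9389 exonic bases with the predicted gene Gm5144 on the other strand. For Npr3, knockout over control was -0.05 in log2 units (SE 0.27, 95% interval -0.66 to 0.56; edgeR adjusted p = 0.958).

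Trp53inp2 encodes a protein that works in autophagosome formation and as a nuclear coactivator. It stood at 192.5, 176, 519, 511 and 334 CPM in knockout libraries 2 to 6, against 304, 248.5, 295, 576 and 179.5 CPM in control libraries 2 to 6. Knockouts 4 and 5 and control 5 were high, and knockouts 2 and 3 and control 6 were low. The gene (ENSMUSG00000038375) occupies chromosome 2, 155381059 to 155389850, plus strand. For Trp53inp2, knockout over control was 0.11 in log2 units (SE 0.39, 95% interval -0.76 to 0.98; edgeR adjusted p = 0.927).

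**Figure D1:**
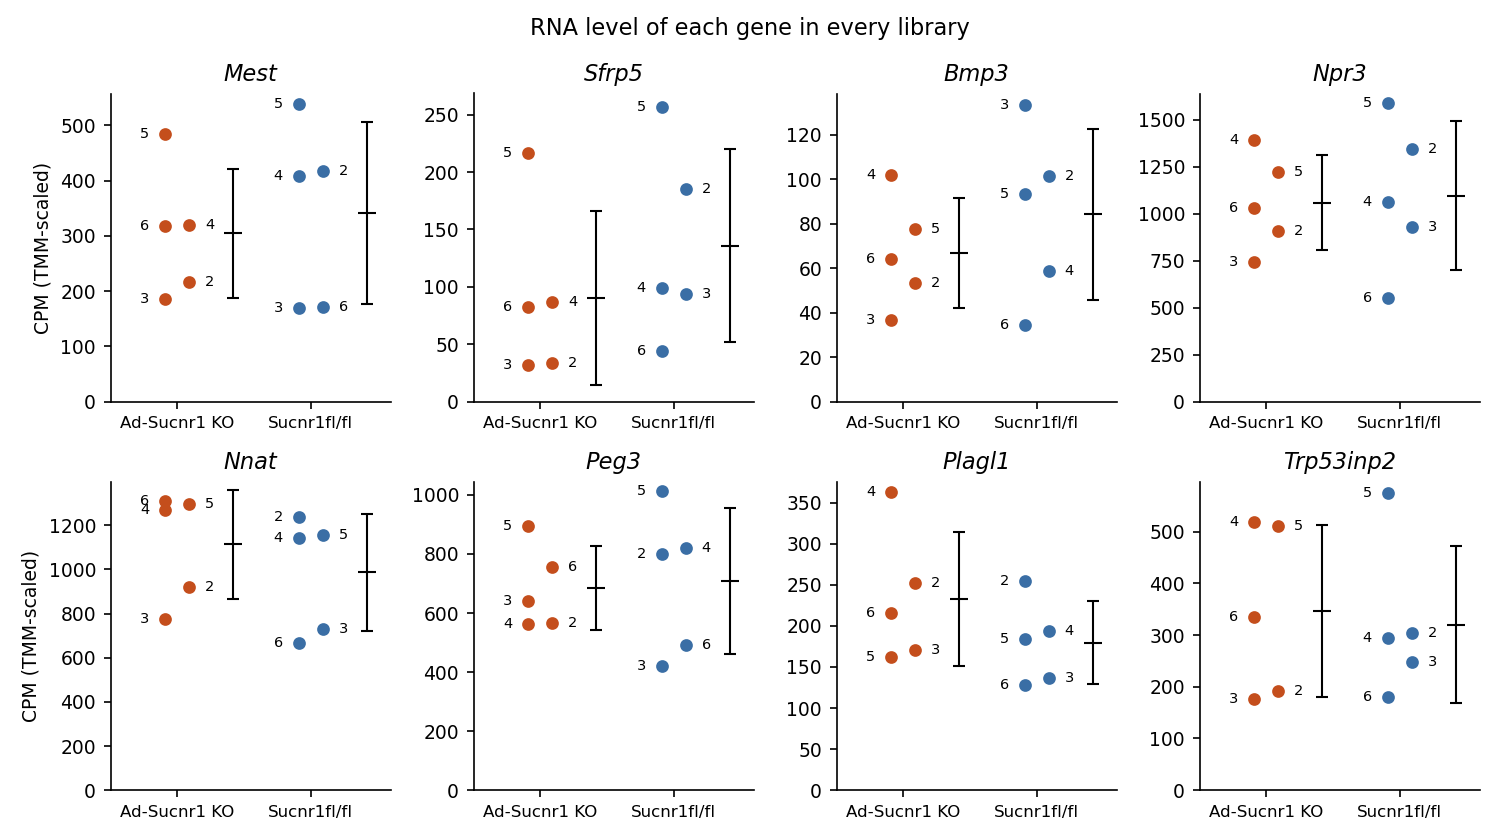
RNA level of each of the 8 genes in CPM (linear axis from 0), with Ad-Sucnr1 KO libraries left of Sucnr1fl/fl libraries. Each point is 1 library with its replicate number, and the bar gives the mean and SD of 5 libraries; the groups overlap in every panel, and Sfrp5 runs from 31.8 CPM in knockout 3 to 256 CPM in control 5.

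Of the 8 genes, 0 passed an adjusted p of 0.05 in edgeR, where 0.0608% of all tested genes did. At an unadjusted p under 0.05 the count was also 0 of 8, against 10.1% of all tested genes, and DESeq2 and limma-voom likewise called 0. Signs were mixed, 3 higher and 5 lower in knockout libraries, and the median log2 ratio of the 8 was -0.05 beside -0.03 over all tested genes. The adipocyte marker score ran from 10.12 to 10.53 in knockout libraries and from 9.465 to 10.43 in control libraries. Score and genotype were thus partly aligned, and their parts in the ratios below cannot be told apart. Some signs changed when control libraries 3 and 6, which had the lowest scores, were left out. Without them 7 of 8 genes had a log2 ratio below 0 (median -0.34 beside 0.0161 over all tested genes, edgeR lowest adjusted p = 0.549). With an adipocyte marker score as a covariate all 8 did (median -0.45 beside 0.0149 over all tested genes, edgeR lowest adjusted p = 0.463). In that edgeR fit 1 of 8 reached an unadjusted p under 0.05, as did 1744 of all 16446 genes tested. Sfrp5 had -1.26 and Mest -0.74 with the covariate. All 28 pairs of the 8 genes had a positive r, so their shared signs are not 8 separate observations.

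The spread between libraries was far above counting error. The SD of log2 CPM over the 10 libraries was 1.07 for Sfrp5, 0.65 for Bmp3, 0.64 for Trp53inp2 and 0.64 for Mest, where counting alone would give 0.03, 0.03, 0.01 and 0.02. It was 0.46 for Npr3, 0.45 for Plagl1, 0.41 for Peg3 and 0.38 for Nnat. The median over all tested genes was 0.27. Among the 1779 tested genes whose mean lay within 0.5 log2 units of that of Sfrp5, 8 had an SD at least as large, Sfrp5 included, which is 0.45%. The same share was 1.95% for Trp53inp2, 2.08% for Mest, 2.25% for Bmp3 and 5.18% for Plagl1. For Npr3, Peg3 and Nnat it was 20.3%, 25.2% and 47.1%, so these 3 varied no more than many genes of like abundance.

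The spread lay within the genotypes. Pooled within groups, the SD of log2 CPM was 1.06 for Sfrp5, 0.67 for Mest and 0.67 for Bmp3. Within knockout libraries the SD was 1.15 for Sfrp5 and 0.54 for Mest, and within control libraries 0.98 for Sfrp5 and 0.78 for Mest. After removal of the part that moved with the adipocyte marker score, Sfrp5 had an SD of 1.05 and Mest of 0.51. For Nnat and Plagl1 that removal left 0.21 and 0.30.

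**Figure D2:**
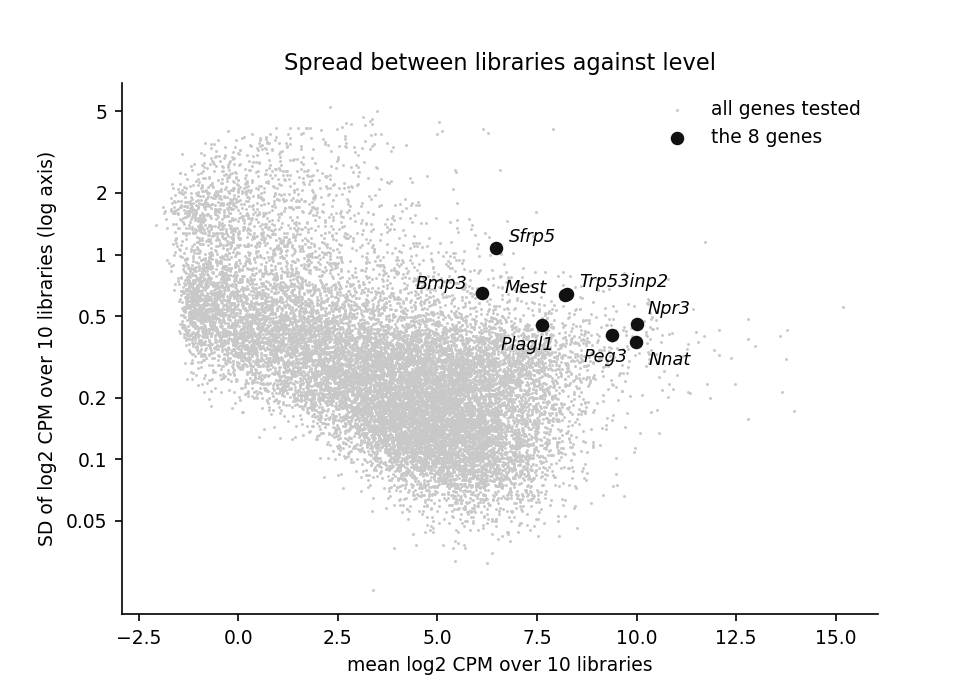
SD of log2 CPM (vertical, log axis) against mean log2 CPM (horizontal), both over 10 libraries, for the 16446 genes tested in grey and the 8 genes in black. Sfrp5, at an SD of 1.07, stands above nearly all genes of its abundance, and Mest and Trp53inp2 lie almost on top of each other at 0.64.

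Per kilobase of exon, which allows genes to be compared, Nnat was the most abundant at 574 ± 138 CPM per kilobase (SD, n = 10), followed by Npr3 at 115 ± 33. Mest had 81.9 ± 34.4, Trp53inp2 63.5 ± 28.5, Sfrp5 59.5 ± 41.7 and Peg3 52.3 ± 14.3 CPM per kilobase. Plagl1 had 26.4 ± 8.9 and Bmp3 10.2 ± 4.3 CPM per kilobase. Nnat was above Npr3 and Npr3 above Mest in 10 of 10 libraries. Trp53inp2 and Sfrp5, and Sfrp5 and Peg3, could not be ordered, since the first of each pair was higher in 6 and in 5 of 10 libraries.

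The genes did not vary independently. Levels of Mest and Sfrp5 rose and fell together over the 10 libraries, with Pearson r = 0.841 (permutation p = 0.00359, adjusted p = 0.0168 over 28 gene pairs) and Spearman rho = 0.782 (permutation p = 0.0103, adjusted p = 0.0506). Control library 3 stood off the line, low for Mest but not for Sfrp5. Without controls 3 and 6, the libraries farthest from the median of Mest, r was 0.975. With each group's mean subtracted r was 0.874, and after removal of the adipocyte marker score 0.923. Only 1.61% of all other tested genes had an r with Mest at least as high. Without control library 5, r was 0.792 (exact permutation test, adjusted p = 0.0504).

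Mest levels had their widest gap, 0.55 log2 units, between 4 libraries at or below 217 CPM and 6 at or above 318 CPM. Within those 6 libraries, knockouts 4, 5 and 6 and controls 2, 4 and 5, Mest and Sfrp5 had r = 0.928 (exact permutation p = 0.00139, the smallest that 6 libraries can give, and adjusted p = 0.00973 over 7 relations). Peg3, the gene with the highest r with Mest among the 8 (r = 0.905 and rho = 0.903, permutation p of 0.0006 and 0.00082, adjusted p of 0.0109 and 0.0115 over 28 pairs), had r = 0.874 within them (exact permutation p = 0.0139, adjusted p = 0.0486). For Nnat, the r with Mest was 0.878 over 10 libraries (permutation p = 0.00204, adjusted p = 0.0114) and -0.487 within the 6 (exact permutation p = 0.328, adjusted p = 0.482), and the difference from the values of Sfrp5 and Peg3 was not tested. The 6 libraries were set apart by the Mest values themselves, after these were seen, so the range of Mest is narrower within them. They are part of the same 10 libraries, and the adjustment over 7 relations leaves that choice out. The p-values within the 6 are thus a description and no separate support. Npr3 and Trp53inp2, with r of 0.839 and 0.829 over 10 libraries (permutation p of 0.00158 and 0.00531, adjusted p of 0.0114 and 0.0174), had 0.489 and 0.366 within the 6 (exact permutation p of 0.344 and 0.432, adjusted p of 0.482 and 0.504).

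**Figure D3:**
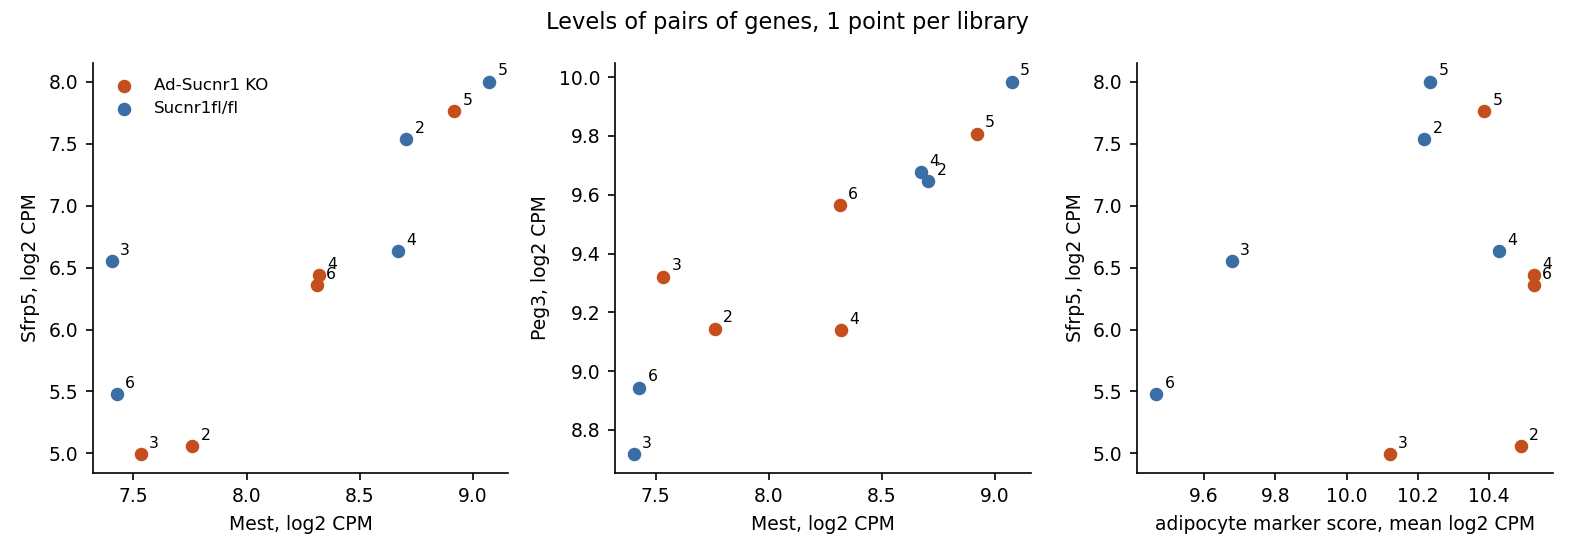
Each point is 1 library, labelled with its replicate number; axes are log2 CPM, with Mest against Sfrp5 left, Mest against Peg3 in the middle, and the mean log2 CPM of adipocyte markers against Sfrp5 right. Ad-Sucnr1 KO and Sucnr1fl/fl libraries lie along the same line for Mest and Sfrp5 (r = 0.841), with control 3 off it, and show no such line against the adipocyte markers (r = 0.198).

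All 28 pairs among the 8 genes had a positive r, with a median of 0.656, and 12 passed an adjusted p of 0.05 by Pearson's r against 3 by Spearman's rho (permutation tests). An r near that median was common in these libraries, since 10.1% of all other tested genes had an r with Sfrp5 at least as high as that of Nnat (0.651), and 15.1% one with Npr3 at least as high as that of Peg3 (0.632). The 3 that passed both were Mest with Peg3, Mest with Npr3 and Npr3 with Trp53inp2. Npr3 and Trp53inp2 had r = 0.871 and rho = 0.927 (permutation p of 0.00078 and 0.00044, adjusted p of 0.0109 and 0.0115), and r = 0.852 without controls 5 and 6. Sfrp5 passed by Pearson's r with Trp53inp2 (r = 0.828) and Npr3 (r = 0.795) besides Mest, with permutation p of 0.00428 and 0.0056 and an adjusted p of 0.0171 and 0.0174. Plagl1 passed with none, and its r with Sfrp5 was 0.047 (permutation p = 0.898, adjusted p = 0.898). Bmp3 and Peg3 had r = 0.084 (permutation p = 0.813, adjusted p = 0.843). Without control library 5 the number of pairs that passed fell to 6.

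**Figure D4:**
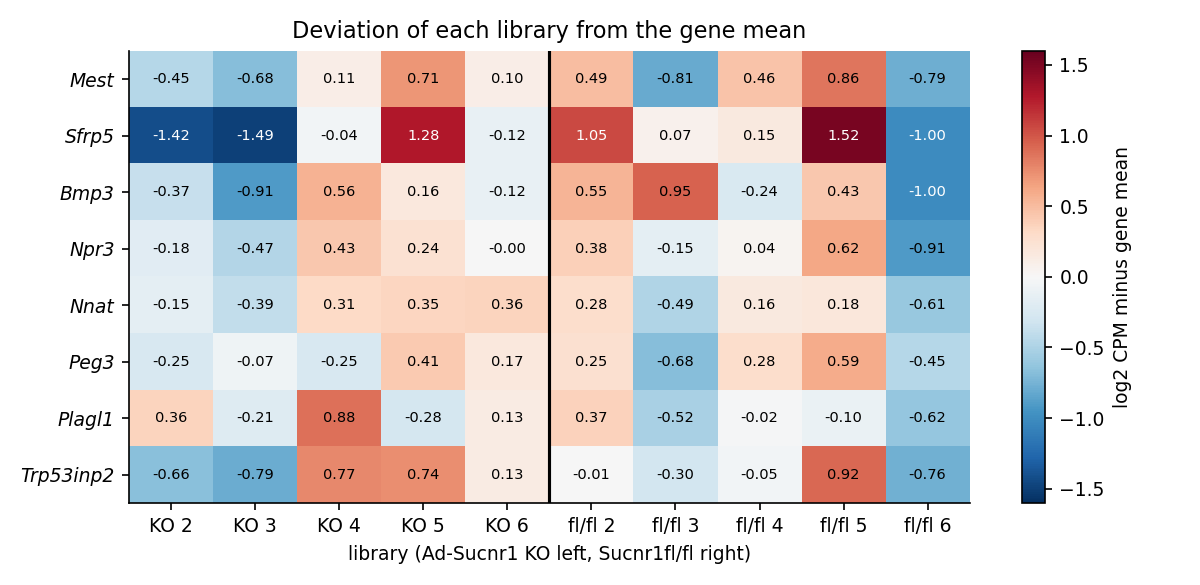
Deviation of each library from the gene's mean, in log2 CPM (colour and number), with the 5 Ad-Sucnr1 KO libraries left and the 5 Sucnr1fl/fl libraries right of the line. Control 6 and knockout 3 are below the mean for all 8 genes, and control 5 is above it for all but Plagl1.

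**Figure D5:**
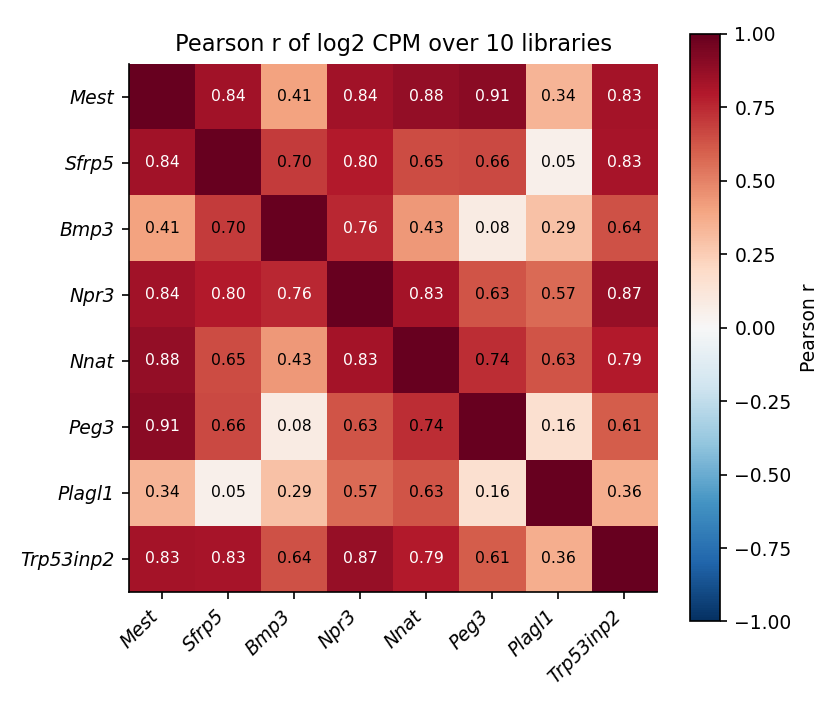
Pearson r of log2 CPM over 10 libraries for each pair of the 8 genes (colour and number). Mest and Peg3 have the highest value, 0.905, and Plagl1 with Sfrp5 the lowest, 0.047.

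Tissue content also differed between the libraries, among those low for these genes as among the rest. Of 16 listed adipocyte markers, all but Lep entered the adipocyte marker score, a mean log2 CPM. The score was 10.49, 10.12, 10.53, 10.39 and 10.53 in knockout libraries 2 to 6 and 10.22, 9.68, 10.43, 10.24 and 9.46 in control libraries 2 to 6. Over 10 libraries its r was 0.604 with Mest (rho = 0.394; permutation p of 0.0636 and 0.263, adjusted p = 0.136 over 32 relations) and 0.198 with Sfrp5 (rho = 0.030; permutation p of 0.592 and 0.945, adjusted p = 0.677). Without controls 3 and 6 those values were 0.003 and -0.124. The r of 0.826 with Nnat (rho = 0.733; permutation p of 0.00324 and 0.0202, adjusted p = 0.0259) became 0.464 without the same libraries. That of 0.755 with Plagl1 (rho = 0.758, permutation p of 0.0109 and 0.0149, adjusted p = 0.07) became 0.5. The epididymal marker score had its most negative r with Bmp3, -0.666 (rho = -0.612; permutation p of 0.0388 and 0.0674, adjusted p = 0.127), which became -0.240 without knockout 3 and control 6. Control 3, the highest library for Bmp3, entered this relation with a score of 0.557 although it held 2715 CPM of Crisp1. The summed level of the epididymal markers, 7 of 12 tested, ran from 2.302 to 5906 CPM in knockout libraries and from 32.09 to 15610 CPM in control libraries. That of the 12 smooth muscle and vas deferens markers ran from 484.1 to 901.2 CPM in knockout libraries and from 685 to 9271 CPM in control libraries, highest in control 3, the library off the line of Mest and Sfrp5 and highest for Bmp3. Macrophage markers, 12 of 12 tested, ran from 971.9 to 1415 CPM in knockout libraries and from 980.4 to 1796 CPM in control libraries. The part of these tissues in the levels of the 8 genes was not tested beyond the adjusted values given here.

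Lep, whose product leptin is secreted by fat in proportion to its mass, gave a second view of the same libraries. It ranged from 342.8 to 916.6 CPM in knockout libraries and from 243.6 to 848.1 CPM in control libraries. The r of Lep was 0.889 with Npr3 (rho = 0.842, permutation p of 0.00042 and 0.00404, adjusted p = 0.0134) and 0.864 with Nnat (rho = 0.782, permutation p of 0.00159 and 0.0109, adjusted p = 0.0254). With Trp53inp2 it was 0.854 (rho = 0.891, permutation p of 0.00266 and 0.00126, adjusted p = 0.0259). Without knockout 3 and control 6 these were 0.774, 0.731 and 0.770. With Mest and Sfrp5 the r was 0.733 and 0.669 (rho of 0.612 and 0.479; permutation p of 0.023 and 0.039 for r and of 0.0684 and 0.165 for rho), and neither passed after adjustment (adjusted p of 0.123 and 0.127).

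Other genes tracked Mest and Sfrp5 more closely than the 7 partners did. Of 11538 genes ranked by r over the 10 libraries, the 5 most like Mest were Dst (r = 0.977), a cytoskeletal linker, Itih5 (0.972), a matrix-associated inhibitor family member expressed in fat, Klf14 (0.966), Vps13d (0.961) and Pold4 (0.960), a DNA polymerase subunit. Klf14 is an imprinted transcription factor gene read from the maternal allele, and lies at 30956023 to 30959078 on the minus strand of chromosome 6, beyond Copg2 from Mest. It ranged from 7.942 to 25.22 CPM, 3.17-fold, which is close to the 3.19-fold of Mest, whereas Vps13d ranged 1.24-fold and Dst 2.10-fold. The 5 most like Sfrp5 were Prr32 (r = 0.977), Zfyve28 (0.975), Dhrs3 (0.963), a retinaldehyde reductase, Slc5a7 (0.962), a choline transporter, and Sptbn1 (0.957), a spectrin. Slc5a7 ranged 14.6-fold, from 2.559 to 37.47 CPM, Zfyve28 4.57-fold and Prr32 4.22-fold. These r values were the highest of 11538 and are given as a description. None of the 10 genes passed the adjusted threshold between genotypes (edgeR adjusted p from 0.658 to 0.991).

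Genes that share a pathway with the 8 were counted from 6 lists. Of all 16446 genes tested, 7370 were higher and 9069 lower in knockout libraries. In edgeR 10.1% of them reached an unadjusted p under 0.05, and 0.0608% passed the adjusted threshold. The other imprinted genes split evenly, 16 up and 19 down of 35 tested (median log2 ratio of knockout to control -0.05). The edgeR test called 0 of them, with 2 (5.71%) at an unadjusted p under 0.05. Wnt signalling had 17 of 48 genes above and 31 below control (median -0.04, 0 called, 2 or 4.17% at an unadjusted p under 0.05). The one with the smallest p was Znrf3, a ubiquitin ligase that removes Wnt receptors, at 22.5 ± 1.6 CPM in knockout libraries and 18.8 ± 1.4 CPM in control libraries (SD, n = 5 each; edgeR adjusted p = 0.400). Its groups did not overlap, as was true of 1.91% of all tested genes. Bone morphogenetic protein signalling had 14 of 37 above and 23 below (median -0.07, 0 called, 4 at an unadjusted p under 0.05), with Id1, a target of the pathway, at 21.9 ± 4.2 CPM in knockout libraries and 32.2 ± 4.9 CPM in control libraries (SD, n = 5 each; edgeR adjusted p = 0.360).

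Natriuretic peptide signalling had 2 of 10 genes above and 8 below control (median -0.21, 0 called, 1 or 10% at an unadjusted p under 0.05). Npr1, the signalling receptor for atrial natriuretic peptide, stood at 59.6 ± 5.0 CPM in knockout libraries and 66.9 ± 13 CPM in control libraries (SD, n = 5 each; edgeR adjusted p = 0.670). Autophagy had 17 of 28 above and 11 below (median 0.07, 0 called, 3 at an unadjusted p under 0.05). Trp53inp1, the paralogue of Trp53inp2, stood at 113 ± 25 CPM in knockout libraries and 75.4 ± 11.3 CPM in control libraries (SD, n = 5 each; log2 fold change 0.58, edgeR adjusted p = 0.381). The lipid storage list leaned otherwise than the 8 genes, with 22 of 23 higher, a median of 0.46 and 0 called. An unadjusted p under 0.05 was reached by 39.1% of that list, against 10.1% of all tested genes and 0 of the 8. Adipocyte markers summed to between 36240 and 51910 CPM in knockout libraries and to between 23740 and 48520 CPM in control libraries, and their part in this count was not tested.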

How the data were processed

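Total RNA libraries were made with a stranded kit, per the labels' protocols. STAR 2.5.2 and the mm10 build are named in the submitters' processing notes. The authors deposited raw counts for Ensembl gene identifiers. Counting program, annotation and strand setting: not given in the sources used here. Symbols and coordinates came from GENCODE release M21 (26008 of 26040 identifiers matched), promoter windows from RefSeq.

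Counts were fitted with edgeR 4.0.16 (R 4.3.3): filterByExpr (minimum count 10, minimum total 15), TMM scaling, robust quasi-likelihood test with the genotype as only term, Benjamini-Hochberg adjustment over all 16446 genes tested, threshold 0.05. The common biological coefficient of variation was 0.412. Intervals are the fitted fold change plus or minus its standard error times the t quantile. Log2 CPM used a prior count of 2. DESeq2 1.42.0 and limma 3.58.1 (voom) were alternatives. Correlations used 100000 permuted pairings, or all pairings for fewer than 10 libraries. The edgeR fit of the genotypes was also run on simulated counts with changes put in. Genes were drawn independently there, without the tissue differences between these libraries, so its error rate in these libraries was not tested. No pair of the 45 library pairs agreed within sampling noise.

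Named genes were the 8 genes, Sucnr1, Lep, the 5 genes with the highest r (mean log2 CPM of at least 2, no predicted-gene name) with Mest and with Sfrp5, and the 4 smallest p per list. Copg2 and Blcap were named as overlapping genes. The genes and lists were chosen with earlier results of these data known. The relations with marker scores and Lep and the comparison within 6 libraries were chosen after the values were seen.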

Additional observations from a re-analysis of the deposited data

How the results depend on the processing

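No setting brought any of the 8 genes past an adjusted p of 0.05; the lowest over all settings was 0.426. Over all genes the count of calls was 10 with edgeR and 213 with DESeq2, 4 with the replicate block, 6 without controls 3 and 6, 4 without knockout 6 and control 3, 3 without knockouts 2 and 3 and controls 2, 3 and 6 (a setting chosen after seeing the data, as were those with the epididymal score and the residual spreads), and 3 to 18 with single libraries left out, highest without control 6. The cause was not tested. Same-numbered libraries deviated together with r of 0.377, -0.113, 0.632, 0.436 and -0.096 for numbers 2 to 6, so the numbers were not taken as pairs.

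Signs of log2 ratios near 0 turned. Npr3 had 0.0073 with limma-voom and 0.0027 with the replicate block, and Peg3 0.003 and 0. With the adipocyte score as covariate Nnat had -0.22, Plagl1 -0.0233 and Trp53inp2 -0.40, and with the epididymal score Trp53inp2 had -0.0417. Without controls 3 and 6 Nnat had -0.087 and Trp53inp2 -0.18, and without the 5 libraries above Bmp3 had 0.0908. With single libraries left out the log2 ratio ran from -0.40 to 0.0636 for Mest, from -0.22 to 0.13 for Npr3, from -0.20 to 0.11 for Peg3 and from -0.0787 to 0.43 for Trp53inp2. Sfrp5 had -1.22 without knockout 5 and -0.23 without control 5, Bmp3 -0.54 without knockout 4 and -0.11 without control 3, and Plagl1 0.54 without control 2 and 0.16 without knockout 4.

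Some spreads changed. Without controls 3 and 6 the SD was 0.27 for Nnat and 0.31 for Peg3. On adipocyte residuals it was 0.21 for Nnat and 0.30 for Plagl1, and on epididymal residuals 0.48 for Bmp3 and 0.49 for Trp53inp2. For Npr3 it ran from 0.35 to 0.48 with single libraries left out. With single libraries left out the r of Mest with Sfrp5 ran from 0.792 to 0.952 (to 0.975 over all settings), and the number of gene pairs that passed from 6 without control 5 to 17 without control 3. With 5 libraries a group, the 95% interval of Sfrp5 ran from 0.253 to 1.74 times the control level.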

Other observations

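The genes given here had the smallest p of their lists, so they were bound to stand out within those lists. None passed the adjusted threshold in edgeR. In bone morphogenetic protein signalling 10.8% of tested genes reached an unadjusted p under 0.05 and in autophagy 10.7%, beside 10.1% of all tested genes. Smad6, an inhibitor of bone morphogenetic protein signalling, averaged 13 ± 4.1 CPM in knockout libraries and 22.5 ± 7.3 CPM in control libraries, and Id3, a target of it, averaged 43.1 ± 18 CPM in knockout libraries and 67.0 ± 18.2 CPM in control libraries (SD, n = 5 each; edgeR adjusted p of 0.432 and 0.490). Smad1, which carries the signal to the nucleus, averaged 31.2 ± 3.0 CPM in knockout libraries and 36.2 ± 3.7 CPM in control libraries (SD, n = 5 each; edgeR adjusted p = 0.490).

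Groups without overlap were found for 1.91% of all tested genes. Among autophagy genes, Wipi1, which binds the forming autophagosome, averaged 52.4 ± 8.6 CPM in knockout libraries and 41.0 ± 2.5 CPM in control libraries without overlap (SD, n = 5 each; edgeR adjusted p = 0.400). In the lipid storage list, Mlxipl, a glucose-responsive transcription factor of fat synthesis, averaged 61.4 ± 4.3 CPM in knockout libraries and 42.1 ± 6.6 CPM in control libraries, also without overlap (SD, n = 5 each; edgeR adjusted p = 0.251). Lpin1, a phosphatidate phosphatase, averaged 923.5 ± 231 CPM in knockout libraries and 523 ± 136 CPM in control libraries without overlap (SD, n = 5 each; edgeR adjusted p = 0.367). Wnt5a, a Wnt ligand, averaged 46.8 ± 5.2 CPM in knockout libraries and 38.3 ± 5.2 CPM in control libraries (SD, n = 5 each; edgeR adjusted p = 0.465).

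Blcap, which surrounds Nnat on the other strand, averaged 170 ± 17 CPM in knockout libraries and 131 ± 31 CPM in control libraries (SD, n = 5 each; log2 ratio 0.38, edgeR adjusted p = 0.484). Cd81, the imprinted gene with the smallest p, averaged 259 ± 30 CPM in knockout libraries and 306 ± 26 CPM in control libraries (SD, n = 5 each; edgeR adjusted p = 0.480).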
